A study of Mus musculus with 15 samples.

Results

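The messenger RNAs of 34 genes that encode Polycomb repressive complexes 1 and 2 (PRC1 and PRC2) and the enzymes that act on their marks were followed in mouse embryonic stem cells (ESCs) depleted of TET1 or TET2. The genes were chosen by name: 6 core PRC2 genes, 5 PRC2 accessory genes, 2 PRC1 ligase genes, 9 genes particular to canonical PRC1, 10 genes of variant PRC1 and 2 genes for histone H3 lysine 27 (H3K27) demethylases. All 34 were found among the 26061 genes of the expression table, and all 34 passed the filter that left 19490 genes for testing. The cells were of the E14 line, grown without feeders in serum and LIF. They were infected with a lentiviral pLKO.1 vector that carried a non-targeting hairpin (shScr), a hairpin against Tet1 (shTet1) or a hairpin against Tet2 (shTet2), selected with puromycin and collected after 3 days of selection. Each group held 5 libraries of rRNA-depleted total RNA, 15 in all, each targeted gene was represented by 1 hairpin, and nothing in the sources used here says that replicates came from separate cultures, so p-values measure only the spread between these libraries.

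Polycomb proteins keep developmental genes silent in ESCs while leaving them able to be switched on later. PRC2 methylates H3K27 through EZH2 or EZH1, with EED and SUZ12 as obligate partners, and PRC1 ubiquitinates histone H2A through RING1B (encoded by Rnf2) or RING1A (encoded by Ring1). Canonical PRC1 carries a CBX protein that reads methylated H3K27, whereas variant PRC1 carries RYBP or YAF2 in its place and is brought to unmethylated CpG islands by KDM2B and other adaptors. TET1 and TET2 oxidise 5-methylcytosine, and TET1 occupies many of the CpG-rich promoters that PRC2 occupies in ESCs, which is the question behind looking at these genes in TET-depleted cells.

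Values were variance-stabilised read counts on a log2 scale, on which a gene without reads sits at 4.25, and the counts behind them, divided by a size factor per library, are given as normalised reads. Libraries held 15258291 to 35432425 reads in genes. Tet1 stood at 14.04, 14.25, 13.68, 14.04 and 13.92 in shScr replicates 1 to 5 and at 12.03, 12.18, 12.41, 12.18 and 11.93 in shTet1 replicates 1 to 5. Every shTet1 library lay below every shScr library, and mean normalised reads of Tet1 were 27.8% of those in shScr (difference -1.84 ± 0.19 on the log2 scale, SE; adjusted p = 0.000228, limma with Benjamini-Hochberg adjustment over all genes tested). Tet2 stood at 11.32, 11.12, 11.61, 11.48 and 11.59 in shTet2 and between 13.15 and 13.52 in shScr. Its normalised reads in shTet2 were 26.6% of those in shScr (difference -1.90 ± 0.13, SE; limma adjusted p = 3.67e-07). Summed normalised reads of 9 ESC markers, including Pou5f1 and Nanog, lay between 90100 and 139000 in every library, and those of 10 fibroblast markers between 154 and 475, with Lum at 0 throughout.

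In control cells the core of PRC2 was strongly expressed. On a scale of normalised reads per kb of exon, which allows genes to be compared, Eed was the highest of the 34 in shScr (5630 ± 825, SD, n = 5), and Rbbp7 (3060 ± 435) and Suz12 (1880 ± 482) followed it in the core. EZH2 is the methyltransferase of dividing cells and EZH1 its paralogue in resting ones. Per kb, Ezh2 stood at 779 ± 125 and Ezh1 at 121 ± 3.76, so that Ezh2 supplied 86.4% ± 1.8 (SD, n = 5) of the reads per kb of the pair. RBBP4, a histone chaperone shared with other complexes, had the level of Ezh2 within the spread (718 ± 58.9). Of the 34 genes, 26 lay above the median of tested genes with a known exon length (40.4 normalised reads per kb), 15 above their upper quartile and 7 in their top decile.

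Accessory subunits decide where PRC2 goes, and their levels differed widely. Mtf2, which encodes a Polycomb-like protein that binds CpG-rich DNA, had 5480 ± 750 normalised reads per kb in shScr, whereas its paralogues Phf1 (30.3 ± 10.6) and Phf19 (18.4 ± 8.7) lay below the median of tested genes. Mtf2 made up 99.1% ± 0.293 of the reads per kb of the 3 Polycomb-like genes. Jarid2 and Aebp2, which encode the partners of the other PRC2 subtype, stood at 1720 ± 476 and 522 ± 77.3.

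The PRC1 ligase was represented almost wholly by Rnf2. Its level per kb in shScr was 1880 ± 156, the same as that of Suz12 within the spread, whereas Ring1 stood at 19.9 ± 8.14 and supplied 1.04% ± 0.373 of the pair. Among the CBX genes examined, Cbx7 was highest (333 ± 72.4, 66.6% ± 4.52 of the reads per kb of Cbx2, Cbx6, Cbx7 and Cbx8), and Cbx8 was the lowest of all 34 genes, with 8.28 ± 3.37 normalised reads per library and 2.25 ± 0.918 per kb. Phc1 supplied 94.7% ± 1.27 of the reads per kb of the 3 PHC genes, whose products polymerise and compact chromatin.

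PCGF proteins define the type of PRC1. Pcgf6, which marks a variant complex with L3MBTL2 that acts on germline genes, was the highest of the 6 (392 ± 40.3 reads per kb in shScr, 39.4% ± 2.89 of the family), followed by Pcgf3 (207 ± 36.8). The canonical members Pcgf2 (75.6 ± 10.9) and Bmi1 (84 ± 38.6) did not differ beyond their spread. Within variant PRC1, L3mbtl2 was highest (709 ± 101) and Bcorl1 lowest (20.7 ± 7.93). Rybp supplied 85.9% ± 3.19 of the pair with Yaf2, and Bcor 89.1% ± 4.57 of the pair with Bcorl1. Of the demethylases that remove methyl groups from H3K27, Kdm6a stood at 446 ± 71.2 and Kdm6b at 17.2 ± 5.28.

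**Figure D1:**
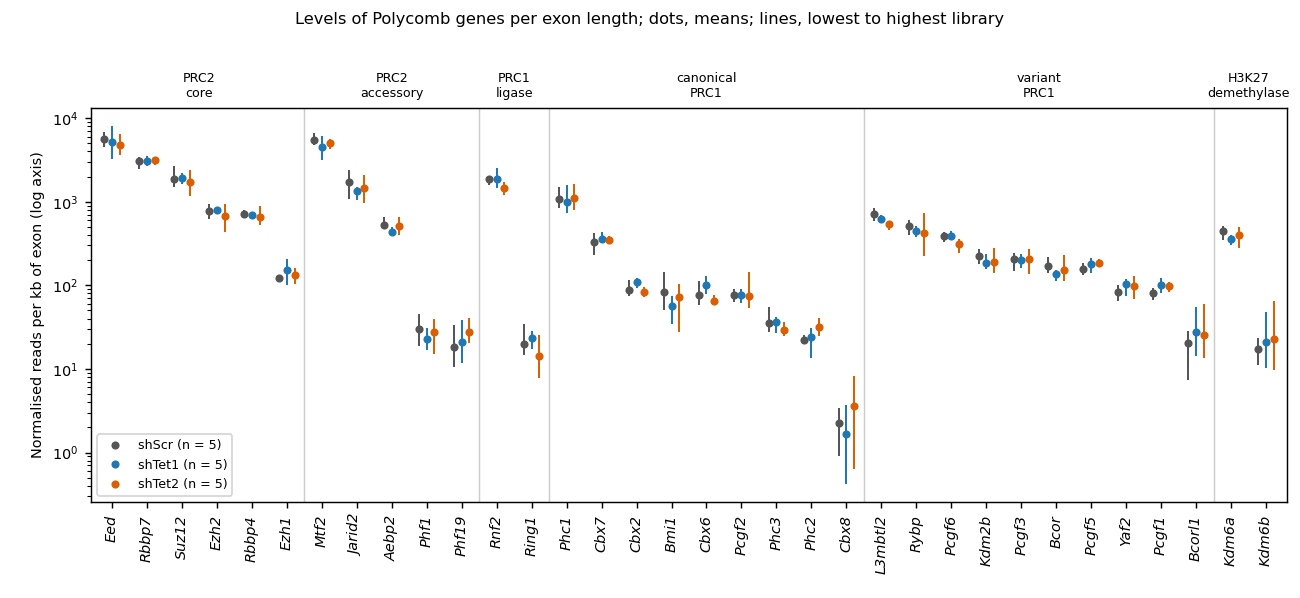
Levels of the 34 genes in normalised reads per kb of exon on a log axis, grouped by complex; dots are means of 5 libraries and lines run from the lowest to the highest library, in grey for shScr, blue for shTet1 and orange for shTet2. Levels range from 2.25 (Cbx8) to 5630 (Eed) in shScr, a range far wider than the differences between the 3 groups of any gene.

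None of the 34 genes passed the test in any of the 3 comparisons. Against shScr, 0 of 34 were called in shTet1, where 0.0718% of all tested genes (14 genes) were, and 0 of 34 in shTet2, where 0.39% (76 genes) were. Between shTet2 and shTet1 directly, 0 of 34 were called against 4.24% of all genes (827 genes). At an unadjusted limma p under 0.05, 2 members passed in shTet1 (5.88%, against 11.8% of all genes), 4 in shTet2 (11.8%, against 11.6%) and 5 between the knockdowns (14.7%, against 15.7%), so that the members' share in either direction was near or below the background each time. In the lower direction alone it was above: 3 members passed in shTet2 against shScr (8.82%, against 3.58% of all genes) and 5 in shTet2 against shTet1 (14.7%, against 6.37%). That gap depended on the scaling of the libraries. After every library was centred on its median, 3 members passed as lower against shScr (8.82%, against 7.18% of all genes). Between shTet2 and shTet1 it was 5 members (14.7%, against 8.52%). The voom fit on the whole reads recovered from the values also called 0, 0 and 0 members, against 0.0872%, 0.292% and 4.62% of all genes.

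The differences were small, and their intervals bound them. No member differed from shScr by more than 0.5 on the log2 scale in either knockdown. Of all tested genes 6.55% did so in shTet1 and 6.56% in shTet2, a share that makes few genes among 34. Between shTet2 and shTet1, 2 members differed by more than 0.5 (5.88%, against 9.41% of all genes). The 95% confidence interval of the difference lay within 1 on either side of 0, which is a 2-fold change, for 32 of 34 members in shTet1 (all but Bmi1 and Bcorl1), for all 34 in shTet2 and for all 34 between shTet2 and shTet1. The median width on either side was 0.365, from 0.26 for L3mbtl2 to 0.795 for Kdm6b. Differences smaller than these widths could not be told from 0 even without adjustment. A call after adjustment needed more, since Cbx6 at -0.586 between shTet2 and shTet1 was not called (limma adjusted p = 0.0776). In bulk RNA a lower level in every cell and fewer cells with the transcript cannot be told apart.

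**Figure D2:**
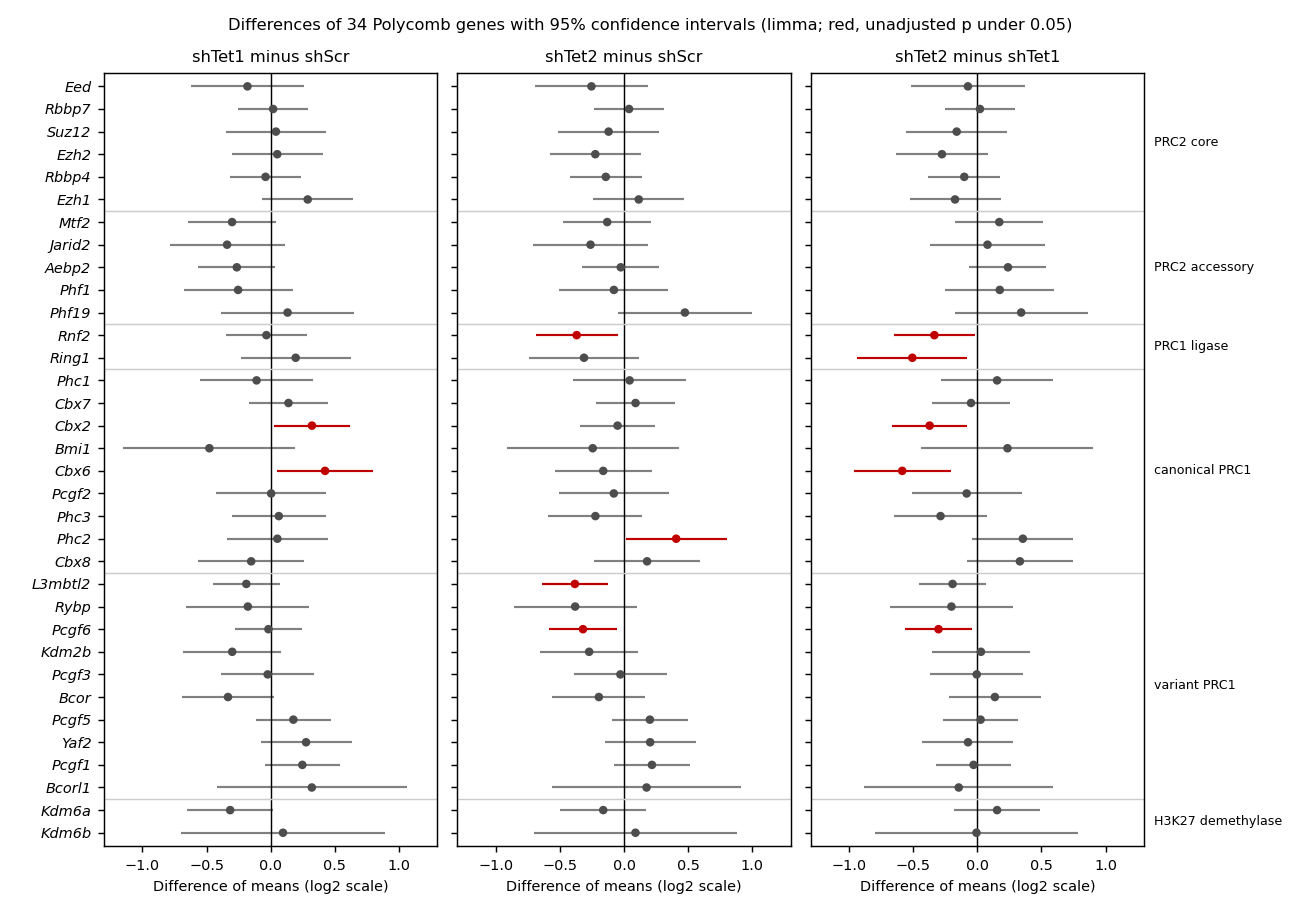
Differences of group means for the 34 genes on the log2 scale with their 95% confidence intervals from limma, in 3 panels for the 3 comparisons; red marks an unadjusted p under 0.05. Most intervals span 0. Every red point in shTet2 against shTet1 lies to the left of 0 and belongs to a PRC1 gene (23.8% of 21 PRC1 genes). None of the 11 PRC2 genes is red in any panel. By the same rule 11.8%, 11.6% and 15.7% of all tested genes passed in the 3 comparisons. In a single panel, 11 genes are too few to tell 0 from such a share.

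PRC2 and PRC1 were summarised apart. Over the 11 PRC2 genes the median difference was -0.04 in shTet1, -0.12 in shTet2 and 0.02 between shTet2 and shTet1, where the median over all tested genes was 0.01, 0.04 and 0.01. Over the 21 PRC1 genes it was 0.0039, -0.08 and -0.07. In shTet2, 22 of 34 members lay below shScr and 12 above. The library medians of all genes were higher in shTet2 than in shScr by 0.11 on average, and after every library was centred on its median 26 of 34 members lay below shScr in shTet2 (median -0.21), against a median of -0.07 over all genes.

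Among core PRC2 genes, Ezh2 stood at 11.91, 12.12, 12.24, 12.40 and 12.50 in shScr, at 12.41, 12.42, 12.20, 12.17 and 12.23 in shTet1 and at 11.43, 11.83, 12.51, 12.02 and 12.26 in shTet2. The 3 groups overlapped, and shTet2 held both the lowest and the highest library. Eed stood at 13.31, 13.55, 13.65, 13.60 and 13.90 in shScr, at 12.81, 13.03, 13.60, 13.52 and 14.14 in shTet1 and at 13.12, 12.99, 13.41, 13.40 and 13.81 in shTet2. Replicates 1 and 2 had lower Eed than replicates 3 to 5 in every group, by 0.54 on average, which was more than any group difference of this gene. Suz12 ran from 12.85 to 13.70 in shScr, from 12.99 to 13.41 in shTet1 and from 12.52 to 13.53 in shTet2, and Ezh1 from 9.83 to 9.93, from 9.63 to 10.64 and from 9.66 to 10.25. Ezh1 was tightly held in control cells and more variable in both knockdowns.

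Of the 5 accessory genes, 4 had lower means than shScr in shTet1 and 4 in shTet2, and none passed the test. Mtf2 stood at 14.60, 14.64, 15.08, 14.90 and 14.82 in shScr and at 14.30, 14.02, 14.65, 14.60 and 14.96 in shTet1, with 82.5% of the control reads (difference -0.30 ± 0.16, SE; limma unadjusted p = 0.0815, adjusted p = 0.503). Replicates 1 and 2 of shTet1 lay below every control library, replicate 4 was level with the lowest of them, and replicates 3 and 5 lay within the control range. Aebp2 differed by -0.26 ± 0.14 (SE) and Jarid2 by -0.34 in the same comparison. Phf19, a low Polycomb-like gene, was the exception in shTet2 (0.475 ± 0.25, SE; limma unadjusted p = 0.0714, adjusted p = 0.488). Its groups overlapped.

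Both PRC1 ligase genes had their lowest mean in shTet2. This was not particular to them or to PRC1. Among core PRC2 genes, Ezh2 (12.01), Eed (13.35), Suz12 (13.03) and Rbbp4 (12.48) had their lowest mean there too. So did Cbx2, Phc3, Rybp, Pcgf2 and Pcgf3. Rnf2, on the minus strand at chr1:153316536-153347953 of build mm9, stood at 12.26, 12.51, 12.53, 12.54 and 12.56 in shScr, at 12.16, 12.14, 12.58, 12.45 and 12.90 in shTet1 and at 11.92, 11.84, 12.11, 12.30 and 12.37 in shTet2. All 5 shTet2 libraries lay below 4 of the 5 shScr libraries, and shTet2 was lower than the same-numbered shTet1 library in 5 of 5 pairs. Mean normalised reads of Rnf2 were 77.9% of shScr (difference -0.37 ± 0.15, SE; limma unadjusted p = 0.0254, adjusted p = 0.343; exact two-sided permutation p = 0.0238) and 78.4% of shTet1 (-0.335 ± 0.15; limma adjusted p = 0.282). The difference from shScr was -0.50 within replicates 1 and 2 and -0.28 within replicates 3 to 5.

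Ring1 (mm9 chr17:34157737-34161625, minus strand), at the other end of the abundance range, stood at 6.35, 6.52, 6.53, 6.34 and 7.19 in shScr, at 6.48, 6.98, 6.87, 6.76 and 6.83 in shTet1 and at 6.06, 6.31, 5.83, 6.32 and 6.86 in shTet2. Of the 5 shTet2 libraries, 4 lay below every library of both other groups, and replicate 5 did not. Between the knockdowns Ring1 had 61.2% of the reads (difference -0.51 ± 0.20, SE; limma unadjusted p = 0.0225, adjusted p = 0.208). Its mean was 46.6 normalised reads in shTet2, so that counting error weighs on each library.

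Among the canonical genes, Cbx2 and Cbx6, which encode readers of methylated H3K27, had the smallest p-values between the 2 knockdowns. Cbx6 (mm9 chr15:79654326-79665118, minus strand) stood at 9.56, 8.66, 8.67, 9.13 and 8.80 in shScr, at 9.74, 9.65, 9.31, 9.17 and 9.06 in shTet1 and at 8.81, 8.65, 9.01, 8.81 and 8.72 in shTet2. It was the only member whose libraries did not overlap between shTet2 and shTet1, as was the case for 6.04% of all tested genes, and no member was free of overlap in shTet1 (2.62% of all genes) or shTet2 (2.7%) against shScr. Reads in shTet2 were 63.8% of those in shTet1 (difference -0.59 ± 0.18, SE; limma unadjusted p = 0.00421, adjusted p = 0.0776; exact permutation p = 0.00794, the smallest that 5 against 5 libraries allow). The difference was -0.97 within replicates 1 and 2 and -0.33 within replicates 3 to 5. Of the exon bases of Cbx6, 18.7% also belong to Npcd on the same strand, so reads there cannot be told apart.

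Cbx2 stood at 9.07, 8.48, 8.54, 8.51 and 8.75 in shScr, at 9.03, 9.14, 9.10, 8.76 and 8.94 in shTet1 and at 8.59, 8.59, 8.78, 8.45 and 8.69 in shTet2. All 5 shTet1 libraries lay above 4 of the 5 shScr libraries, and shScr replicate 1 was among the high ones. Against shScr, Cbx2 (0.32 ± 0.14, SE; limma adjusted p = 0.369) and Cbx6 (0.42 ± 0.18; adjusted p = 0.356) were the 2 members with an unadjusted p under 0.05 in shTet1, both with higher values, as had 6.55% of all genes by the same rule. Cbx2 had 75.4% of the shTet1 reads in shTet2 (-0.37 ± 0.14; limma adjusted p = 0.173). Cbx7, the main CBX gene, differed by 0.14 in shTet1 and 0.09 in shTet2. Phc2, a minor PHC gene, stood at 7.54, 7.68, 7.46, 7.74 and 7.48 in shScr and at 7.73, 8.22, 8.34, 7.81 and 7.83 in shTet2 (0.41 ± 0.19; limma unadjusted p = 0.0439, adjusted p = 0.412).

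**Figure D3:**
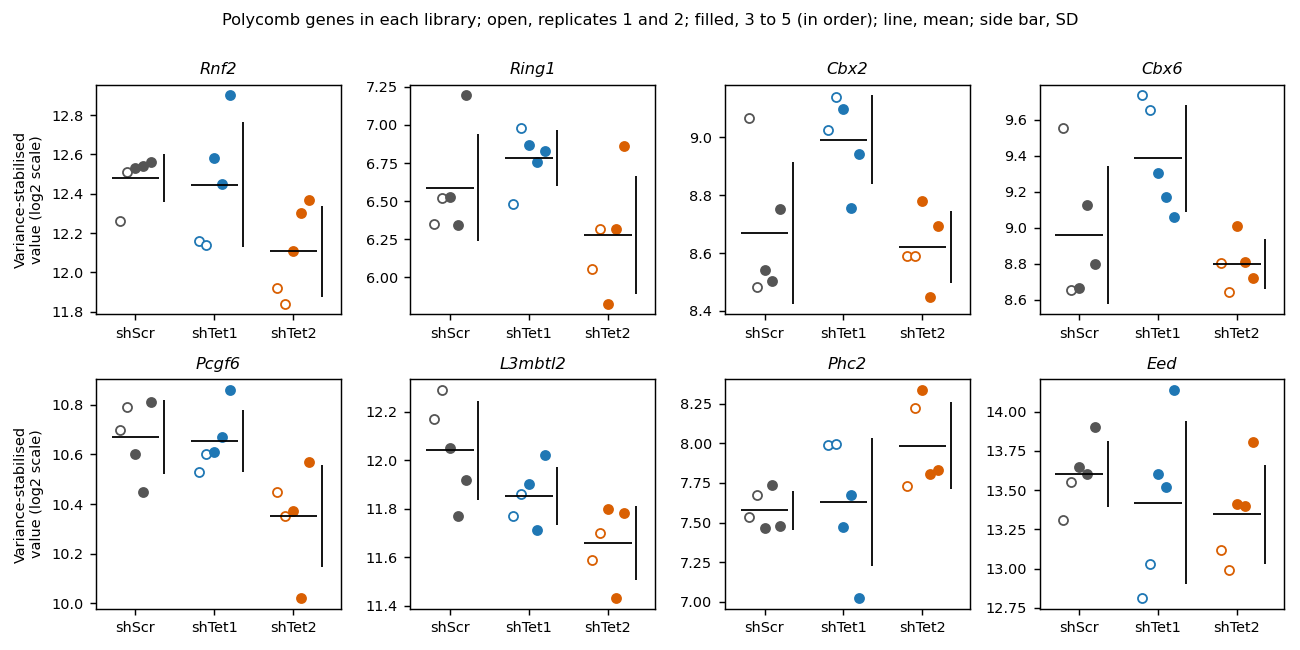
Values of 8 Polycomb genes in each of the 15 libraries on the variance-stabilised log2 scale; open circles are replicates 1 and 2, filled circles 3 to 5, horizontal lines group means and side bars SD. Rnf2, Ring1, Cbx2, Cbx6, Pcgf6, L3mbtl2 and Eed have their lowest mean in shTet2. Cbx6 in shTet2 lies wholly below shTet1, and Eed is lower in replicates 1 and 2 than in 3 to 5 in each group.

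Both Pcgf6 and its partner L3mbtl2 had their lowest mean in shTet2. L3mbtl2 (mm9 chr15:81494319-81518745, plus strand) stood at 12.17, 12.29, 12.05, 11.77 and 11.92 in shScr, at 11.77, 11.86, 11.90, 11.71 and 12.02 in shTet1 and at 11.59, 11.70, 11.80, 11.43 and 11.78 in shTet2, with shTet1 in between. Normalised reads in shTet2 were 76.2% of shScr (difference -0.38 ± 0.12, SE; limma unadjusted p = 0.00617, adjusted p = 0.2; exact permutation p = 0.0238), and the difference was -0.59 within replicates 1 and 2 and -0.245 within replicates 3 to 5. Of its exon bases, 17.2% overlap Chadl on the opposite strand, and use of strand in the counting is not given in the sources used here. Pcgf6 (mm9 chr19:47108109-47125380, minus strand) stood at 10.70, 10.79, 10.60, 10.45 and 10.81 in shScr, at 10.53, 10.60, 10.61, 10.67 and 10.86 in shTet1 and at 10.45, 10.35, 10.37, 10.02 and 10.57 in shTet2. It had 79.9% of the shScr reads in shTet2 (-0.32 ± 0.13; limma unadjusted p = 0.0198, adjusted p = 0.31; exact permutation p = 0.0159), with -0.35 within replicates 1 and 2 and -0.30 within replicates 3 to 5. Of the reads per kb of the PCGF family, Pcgf6 held 39.4% ± 2.89 (SD, n = 5) in control cells, 38.6% ± 3.97 after Tet1 knockdown and 33.2% ± 4.07 after Tet2 knockdown, while Pcgf5 held 15.8% ± 2.08, 18% ± 2.81 and 19.4% ± 1.91.

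**Figure D4:**
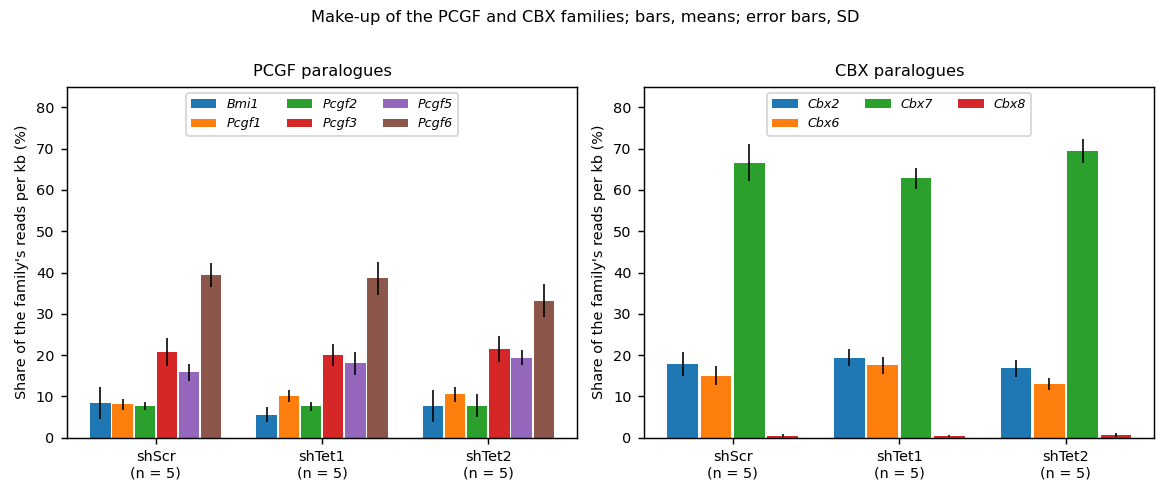
Share of each paralogue in the summed reads per kb of its family, in percent, for the 6 PCGF genes and for the 4 CBX genes examined; bars are means of 5 libraries and error bars SD. Pcgf6 and Cbx7 lead their families in all 3 groups, and Pcgf6 has 33.2% in shTet2 against 39.4% in shScr.

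None of the remaining variant genes had an unadjusted p under 0.05. Kdm2b, whose product binds unmethylated CpGs, stood at 11.42, 11.43, 11.09, 11.34 and 11.66 in shScr, at 11.04, 10.89, 11.03, 11.01 and 11.48 in shTet1 and at 10.78, 10.90, 11.70, 10.72 and 11.49 in shTet2. In both knockdowns 2 libraries at most reached the shScr mean. Bcor, a scaffold of the PCGF1 complex, had 78.2% of the shScr reads in shTet1 and was lower in 5 of 5 pairs (-0.33 ± 0.17, SE; limma unadjusted p = 0.0687, adjusted p = 0.474), and Kdm6a had 79.7%, also lower in 5 of 5 pairs (-0.32 ± 0.16; limma unadjusted p = 0.0623, adjusted p = 0.456). Rybp ran from 10.01 to 11.67 within shTet2 alone, and Kdm6b had the widest spread of the 34 genes (pooled SD 0.71). The median pooled SD of the members was 0.286, against 0.292 over all tested genes.

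Same-numbered libraries of shTet1 and shScr, and of shTet2 and shTet1, deviated together over all genes, so the comparison was also fitted with the replicate number as a block. The split of replicates 1 and 2 from 3 to 5, given below, makes same-numbered libraries deviate together by itself. The correlations therefore do not show that the numbers pair the libraries, and the block calls rest on that assumption. Against shScr no member was called in shTet1 (4.8% of all genes were). Between shTet2 and shTet1, 3 members were called, all lower in shTet2 and all PRC1 genes, which is 8.82% of the members against 11.2% of all genes in either direction and 4.65% in this one: Rnf2 (limma adjusted p = 0.0406), Ring1 (adjusted p = 0.0447) and Cbx6 (adjusted p = 0.0186). The call for Cbx6 was lost without replicate 2 of shTet1, or replicate 1 or 2 of shTet2 (adjusted p up to 0.074). Those for Rnf2 and Ring1 were each lost on leaving out any of 11 of the 15 libraries, with adjusted p up to 0.126 and 0.145. Rnf2 remained called without replicates 2, 3 or 5 of shScr or replicate 2 of shTet1, and Ring1 without replicates 2, 3 or 5 of shScr or replicate 5 of shTet1.

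Libraries that stood apart touched these values. Replicates 1 and 2 separated from 3 to 5 in all 3 groups along the main axis of deviation from the group means (37.9% of the variance), and the labels, which mention 2 ways of extracting RNA, assign neither to a library. With that split as a term, Cbx6 was called between shTet2 and shTet1 (limma adjusted p = 0.0427) and no other member was. The share of all genes called after adjustment in that fit is not given here. Before adjustment, 14.7% of the members had a p under 0.05 in it, against 18.9% of all genes. Bmi1 was lower by 0.81 and Eed by 0.54 in replicates 1 and 2. The third replicate of shTet2, which had the fewest reads, was the highest of its group for 19 of the 34 members (55.9%, against 20.9% of all tested genes). Without it the median difference of the members between shTet2 and shScr was -0.21, with 24 of 34 below 0. At an unadjusted limma p under 0.05, 9 members passed, all lower (26.5%, against 12.3% of all genes and 4.26% that were lower). After adjustment 0 were called (lowest adjusted p = 0.172, limma). Leaving out a library picked for its high member values lowers the members' shTet2 means by construction, so these counts say nothing further about the members. Reads in olfactory and vomeronasal receptor genes ran from 11.1 to 64.7 per 1000000 reads. Of the 9 fibroblast markers tested, 6 had higher and 3 lower means in shTet2 than in shScr (lowest difference -0.27, Postn). Thy1 had a mean of 155.2 normalised reads in shTet2 against 80.9 in shScr (limma adjusted p = 0.127) and Fbln2 129 against 58.4 (adjusted p = 0.109). All 9 ESC markers had lower means in shTet2 than in shTet1. Against shScr, 8 of the 9 were higher in shTet1 (median difference 0.235) and 7 were lower in shTet2 (median -0.101). The part of these markers in the member values was not tested.

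CpG is the sequence in which TET enzymes act and KDM2B binds, and most promoters of the members are rich in it. Promoters of 300 bases, from 250 bases before to 50 after the start, were found for 29 of the 34 members in the RefSeq tables of build GRCm38.p6. They held a median of 24 CG dinucleotides, from 9 for Phc1 to 49 for Kdm2b, against a median of 19 over 12588 tested genes, and 28 of 29 held at least 10 CG, as did 74.4% of the tested genes. The promoters of 5 of the PRC1 genes whose lowest mean was in shTet2 held 30 (Rnf2), 37 (Ring1), 31 (Cbx6), 17 (L3mbtl2) and 22 (Pcgf6), on both sides of the median of all genes. Windows of 30 bases were searched only in the 250 bases before the start. The window with the most CG in that stretch of each gene is printed with every CG in capitals, and CG reads the same on both strands. In GRCm38.p6 the windows lie at chr1:151501086-151501115 (Rnf2, minus strand), chr17:34024703-34024732 (Ring1, minus), chr15:79834428-79834457 (Cbx6, minus), chr15:81663840-81663869 (L3mbtl2, plus) and chr19:47050914-47050943 (Pcgf6, minus). They hold 5, 9, 7, 7 and 6 CG in that order, and the letters say nothing of methylation or binding in these cells.
Rnf2: gggctgCGcCGgCGctgggggCGtctggCG
Ring1: CGgCGCGCGtggCGCGCGagggCGgtgaCG
Cbx6: gagccttCGCGCGccccCGcccCGCGagCG
L3mbtl2: ggaggCGgggCGCGggCGagCGCGgaacCG
Pcgf6: agCGgcctctgCGgagCGcCGgCGcctgCG

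Other genes of the pathway were read from a list of 49 names, of which 46 were tested. Called genes of the list numbered 0 in shTet1, 0 in shTet2 and 2 between shTet2 and shTet1 (4.35%, against 4.24% of all genes). Scml2, whose product joins PRC1 in the germline, stood at 7.94, 7.95, 7.91, 8.18 and 8.002 in shScr, at 7.67, 7.40, 7.21, 7.67 and 7.34 in shTet1 and at 8.13, 8.29, 8.05, 8.46 and 8.07 in shTet2. The shTet1 libraries lay below all others, and the difference between shTet2 and shTet1 was 0.74 ± 0.14 (SE; limma adjusted p = 0.00503), higher in 5 of 5 pairs. Foxk2, a partner of the deubiquitinase BAP1, stood between 8.82 and 9.94 in shScr. It was lower in shTet2 than in shTet1 (difference -0.94 ± 0.26, SE, limma adjusted p = 0.0448), with -1.48 within replicates 1 and 2 and -0.585 within replicates 3 to 5. That call was lost on leaving out any of 11 libraries (adjusted p up to 0.127) and was kept only without replicates 1, 2 or 4 of shScr or replicate 5 of shTet1. With the replicate block, 2 genes of the list were called in shTet1 against shScr (Scml2 and Mll3; 4.35%, against 4.8% of all genes) and 5 between shTet2 and shTet1 (Scml2, Wdr5, Tfdp1, Lcor and Foxk2; 10.9%, against 11.2%). The call for Scml2 against shScr was lost without replicate 2 of shTet1 (adjusted p = 0.066).

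Developmental genes known as Polycomb targets were read from a textbook list of 54, of which 48 were tested. Not all were silent here, as Foxd3 stood between 8.93 and 10.7 in shScr and Gbx2 between 8.17 and 10.29. Most were low, with a median of 6.37 normalised reads in shScr over the 53 found, and the range ran from 0 to 985. None was called in shTet1 or shTet2 against shScr, and 3 (6.25%, against 4.24% of all genes) were called between shTet2 and shTet1, 2 higher and 1 lower. Lmx1a, a roof plate and dopaminergic regulator, stood at 5.45, 5.76, 6.34, 6.34 and 6.40 in shTet1 and at 7.11, 7.12, 7.53, 7.18 and 7.54 in shTet2, with shScr between 6.50 and 7.16 (difference 1.24 ± 0.21, SE; limma adjusted p = 0.00138). Every shTet1 library lay below every library of the other groups. Neurog1, a proneural factor with a mean of 2.31 normalised reads in shTet1 and 14.8 in shTet2, stood between 4.77 and 5.65 in shScr. It differed by 0.72 ± 0.18 between the knockdowns (limma adjusted p = 0.0263). This call was lost without replicates 2, 3 or 4 of shTet1 or replicates 1, 2 or 3 of shTet2 (adjusted p up to 0.0815).

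Eomes, a mesendoderm regulator, went the other way, with 7.73, 7.47, 7.36, 7.05 and 7.34 in shTet1 and 6.29, 6.33, 7.12, 6.12 and 6.41 in shTet2 (difference -0.94 ± 0.22, SE; limma adjusted p = 0.0185). Its call was lost without replicate 1 of shTet1 or replicates 1, 2 or 4 of shTet2 (adjusted p up to 0.0562). Over the 48 targets the median difference was -0.02 in shTet1, 0.10 in shTet2 and 0.07 between shTet2 and shTet1, against 0.01, 0.04 and 0.01 over all genes. With the replicate block, Eomes and Lmx1a were among the targets called in shTet1 against shScr (6.25% of the targets, against 4.8% of all genes), and 8 targets were called between shTet2 and shTet1 (16.7%, against 11.2%). Against shScr, the call for Eomes was lost without replicates 1 or 4 of shScr or replicates 1, 2 or 4 of shTet1 (adjusted p up to 0.0665), and that for Lmx1a without replicates 1 or 2 of either group (adjusted p up to 0.0858).

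**Figure D5:**
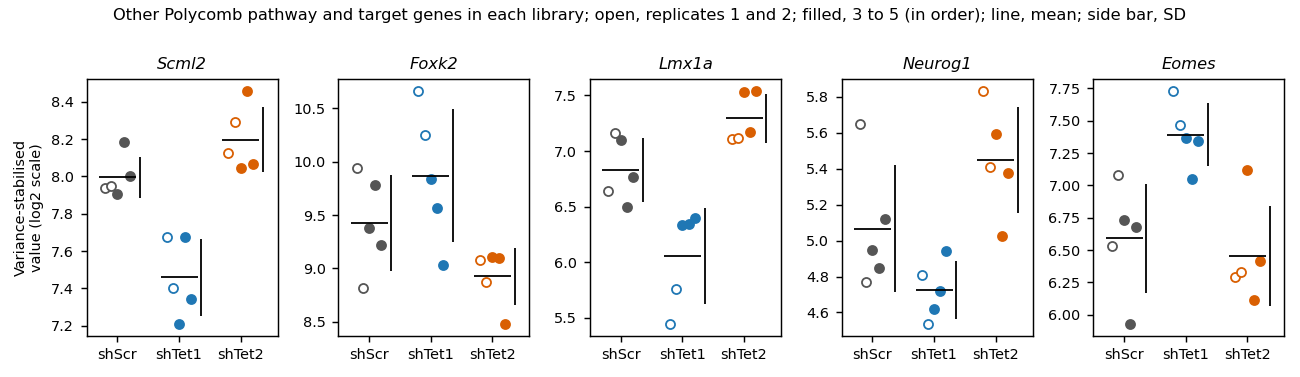
Values in each library of the 5 called genes from the lists of other pathway genes (Scml2, Foxk2) and Polycomb targets (Lmx1a, Neurog1, Eomes), on the variance-stabilised log2 scale; open circles are replicates 1 and 2, filled circles 3 to 5, lines means and side bars SD. Scml2 and Lmx1a in shTet1 lie wholly below both other groups, and Eomes is highest in shTet1.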

How the data were processed

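Total RNA of 15 libraries (5 shScr, 5 shTet1, 5 shTet2) was depleted of rRNA and sequenced single-end. Per the study's methods and the labels, the authors trimmed reads with Trim Galore 0.3.3, mapped them to mm9 with TopHat2 2.0.9, counted them per gene with SeqMonk and deposited variance-stabilised values on a log2 scale from DESeq2 (version not given in the sources used here). RNA was extracted by either of 2 methods, which the labels do not assign to libraries. The depth behind each value limits low genes most, and no interval here covers more than the spread between libraries. The transformation was inverted, and 100% of the values above the minimum (4.25) then came out as whole reads, which gave the depth of each library. Within groups the libraries correlated with r from 0.969 to 0.994 over 30 pairs, and their counts differed by more than sampling noise (chi-square per degree of freedom at least 22.6).

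Genes above the minimum in at least 5 of 15 libraries (19490) were fitted with limma 3.58.1 in R 4.3.3 (lmFit, eBayes with trend, 2-sided, group the only term, all libraries together), with Benjamini-Hochberg adjustment over all genes tested and a threshold of 0.05. DESeq2 and edgeR were not run, and voom was the only fit made on the recovered reads. Exact permutation tests compared 5 with 5 libraries (smallest p 0.00794) over 34 genes and 3 comparisons, and their p-values are unadjusted. The 2 comparisons with shScr share its libraries. Named genes were Tet1, Tet2, the core and ligase genes, the 5 members with the smallest p per comparison, the highest and lowest member of each class, and called genes of the other lists; Kdm2b, Rybp, Bmi1, Pcgf2, Pcgf3, Pcgf5, Jarid2 and paralogues were added after their values were seen. The members and lists were chosen with earlier results of these data known. Levels per kb used exon lengths of GENCODE (mm9), and promoters came from RefSeq (GRCm38.p6). The scripts were tested on simulated data. The correlation of same-numbered libraries' deviations was 0.374 to 0.657 for shTet1 and shScr and 0.33 to 0.731 for shTet2 and shTet1, which were taken as paired, and 0.0079 to 0.769 for shTet2 and shScr, which were not. A repeat table was not used here. The values of 1 gene of the target list are not reported here.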

Additional observations from a re-analysis of the deposited data

Results flagged for a closer look

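In 8 of 102 groups of 5 libraries (34 genes, 3 groups each), the highest or lowest library stood apart from the other 4 by Dixon's criterion, which chance alone does in about 1 in 20 groups. In shScr, replicate 1 was low for Rnf2 (12.26, nearest 12.51), replicate 2 low for Bcorl1 (6.60, nearest 7.78), replicate 4 high for Aebp2 (12.50, nearest 12.15) and replicate 5 high for Ring1 (7.19, nearest 6.53). In shTet1, replicate 5 was low for Phc3 (8.74, nearest 9.18) and high for Kdm2b (11.48, nearest 11.04). In shTet2, replicate 3 was high for Pcgf2 (9.06, nearest 7.95) and for Kdm6b (8.92, nearest 7.22).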

How the results depend on the processing

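The number of members called between shTet2 and shTet1, 0 as reported, was 1 after median centring and 1 with the split of replicates 1 and 2 against 3 to 5 as a term. It was 3 with the replicate block and 0 to 1 on leaving out each library, the 1 being Cbx6 without shScr replicate 1 (limma adjusted p = 0.0413). At an unadjusted limma p under 0.05, 14.7% of the members passed after median centring, against 15.7% of all genes. With the split term it was 14.7%, against 18.9%. Shares of all genes called after adjustment are given here only for the fit with group as the only term, the replicate block and voom. For shTet2 against shScr, whose libraries were not taken as paired, the block gave 2 members, against 4.31% of all genes. These were Rnf2 (limma adjusted p = 0.0489) and L3mbtl2 (adjusted p = 0.0358). The call for Rnf2 was lost without any of 13 libraries (all but shScr replicate 5 and shTet1 replicate 5, adjusted p up to 0.162). That for L3mbtl2 was lost without any of 8 (replicates 1, 2 and 4 of shScr, 3 of shTet1 and 1, 2, 4 and 5 of shTet2, up to 0.127). For other pathway genes the block gave 2 (shTet1 against control), 3 (shTet2 against control) and 5 (between the knockdowns), and in the last of these no filter gave 1, the 2 groups alone 1, the receptor read share as a covariate (chosen after seeing the data) 4 and leaving out each library 1 to 2. For Polycomb targets the block gave 3, 2 and 8, the split term 2 in shTet1 against shScr, and leaving out each library 1 to 4 between shTet2 and shTet1. Of 504 values of 21 differences of 13 genes under these and the other alternatives, which include a stricter filter and voom, 496 kept their direction and side of the threshold, 8 passed it and 0 were reversed. Depth limits Cbx8 and Neurog1 most.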
